A study of Mus musculus with 4 samples.

Results

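The genes described here are the opioid system of the mouse: the 4 opioid peptide precursors Penk, Pdyn, Pnoc and Pomc and the 4 opioid receptors Oprm1, Oprd1, Oprk1 and Oprl1. They were taken by symbol, and each of the 8 was found once among the 21883 features of each table. The study measured RNA in 4 groups of 1 library each: dorsal root ganglia (DRG) of lumbar levels 4 to 6 and lumbar dorsal spinal cord, each taken on the ipsilateral and on the contralateral side. All libraries came from wild-type young adult male mice of the BL6/C57 strain, 7 days after the sciatic and femoral nerves of the left side had been cut. The ipsilateral side is the side of the cut. The contralateral tissue came from operated mice too, so it is a side-to-side comparison and not a comparison with uninjured mice, and the sources used here do not say whether a library pooled several mice. The comparison asks how transcript levels differ between sides in ganglia whose axons were cut and in the cord where those axons end.

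Opioid peptides are cut by proprotein convertases from longer precursor proteins. Penk gives the enkephalins, which act mainly at delta and mu receptors, Pdyn gives the dynorphins, which act at the kappa receptor, Pomc gives beta-endorphin, and Pnoc gives nociceptin, the ligand of the Oprl1 receptor. All the receptors couple to inhibitory G proteins of the Gi and Go class. On the central terminals of sensory neurons they lower transmitter release, and in dorsal horn neurons they open potassium channels. This is why opioids given at the spinal cord relieve pain.

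The precursors share a short coding unit, shown here because the levels below count precursor transcripts and not peptides, and a transcript can carry several peptide copies. In the GENCODE M21 coding sequence, Penk holds 7 enkephalin cores, 6 of Met-enkephalin and 1 of Leu-enkephalin. Pdyn holds 3 Leu-enkephalin cores, Pomc holds 1 Met-enkephalin core at the start of beta-endorphin, and Pnoc holds 1 nociceptin core. Capitals mark the 15 bases that code for the core, with 6 bases on either side in lower case. The 6 bases before each printed core code for a pair of basic residues, the kind of site where convertases cut. The Leu-enkephalin core of Penk and the second core of Pdyn have the same 15 bases.
Penk, first Met-enkephalin core (chromosome 4): aagaagTACGGAGGCTTCATGaaacgg
Penk, Leu-enkephalin core (chromosome 4): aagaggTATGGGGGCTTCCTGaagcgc
Pdyn, second Leu-enkephalin core (chromosome 2): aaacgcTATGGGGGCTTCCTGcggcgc
Pomc, Met-enkephalin core of beta-endorphin (chromosome 12): aagcgtTACGGTGGCTTCATGacctcc
Pnoc, nociceptin core (chromosome 14): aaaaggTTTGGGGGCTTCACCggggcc

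Levels are the authors' deposited FPKM (fragments per kilobase, scaled for depth), a unit per length, so that genes can be set side by side. With 1 library per group no difference below has a replicate check, and no test of the conditions was made. A gene counts as measured where at least 1 library of the tissue has 1 FPKM or more, and as 2-fold different where the log2 of (ipsilateral FPKM + 1) over (contralateral FPKM + 1), called the log2 ratio here, is at least 1 or at most -1. Plain folds are ratios of the deposited FPKM, and their 95% intervals use the error that follows from the test statistic in the authors' deposited table, which covers these libraries and not the variation between mice. The summed FPKM was 442298 ipsilateral and 431795 contralateral in DRG, and 442196 ipsilateral and 425636 contralateral in cord. The median log2 ratio over all measured features was 0.05 in DRG and 0.02 in cord, where centring on pan-neuronal genes put it at 0.11. The number of reads per library is not given in the tables. Some genes of the marker lists, named here after their values were seen, separated the labelled tissues. The nociceptor genes Trpv1 and Mrgprd, listed at 0 in both cord libraries, were at 19.3 and 44.0 FPKM in ipsilateral DRG, against 32.0 and 70.4 FPKM in contralateral DRG. The glycine transporter gene Slc6a5, which marks inhibitory neurons of the cord, was at 65.4 FPKM in ipsilateral and 104 FPKM in contralateral cord, and at 0.0215 FPKM in ipsilateral and 0.523 FPKM in contralateral DRG. Not every listed gene did so. Sst of the nociceptor list was at 266 FPKM in ipsilateral cord and 6.17 FPKM in ipsilateral DRG. Npy of the dorsal horn inhibitory list was at 87.3 FPKM in ipsilateral cord and 373 FPKM in ipsilateral DRG.

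In the ganglia on the side of the cut, the mu, delta and nociceptin receptor transcripts were each at less than their contralateral level, by folds of similar size. The kappa receptor was under 1 FPKM on either side. The precursor Penk had a higher value on the cut side, but its interval included no difference. In the cord, Penk was 2.09-fold higher on the cut side, and the intervals of all the receptors included no difference.

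Oprd1, the delta opioid receptor (mm9 chromosome 4, 131666640 to 131700401), was at 2.20 FPKM in ipsilateral DRG and 6.06 FPKM in contralateral DRG, a log2 ratio of -1.14. The plain ipsilateral over contralateral fold was 0.363, with an interval of 0.231 to 0.571, so the contralateral level was 2.76 times the ipsilateral one. This log2 ratio was the 65th lowest of 13137 measured features.

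Oprl1, the nociceptin receptor (mm9 chromosome 2, 181449748 to 181455677), was the most abundant of the receptors in each library. It was at 3.54 FPKM in ipsilateral DRG and 7.87 FPKM in contralateral DRG, a log2 ratio of -0.97. Its fold was 0.450, with an interval of 0.288 to 0.704.

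Oprm1, the mu receptor at which morphine acts, was at 2.67 FPKM in ipsilateral DRG and 5.80 FPKM in contralateral DRG, a log2 ratio of -0.89. Its fold was 0.461, with an interval of 0.282 to 0.754. The authors' table gives Oprm1 the mm9 interval chromosome 10, 3308331 to 3557940, which is also the interval of the neighbouring gene Ipcef1, so reads from any overlap of these genes cannot be told apart here. Ipcef1 itself was low and lay in the other direction, at 0.929 FPKM in ipsilateral DRG and 0.399 FPKM in contralateral DRG.

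Oprk1, the kappa receptor (mm9 chromosome 1, 5578573 to 5592947), did not reach 1 FPKM in DRG. It was at 0.768 FPKM in the ipsilateral library and 0.822 FPKM in the contralateral library, with a fold of 0.934. The interval of 0.369 to 2.36 includes the folds of Oprm1 and Oprl1 in DRG and not that of Oprd1, which lies just below its lower end.

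Added over the 4 receptors, the level was 9.18 FPKM in ipsilateral DRG and 20.5 FPKM in contralateral DRG, a ratio of 0.447. By share, Oprl1 made up 38.6% of receptor FPKM in ipsilateral DRG and 38.3% in contralateral DRG. Oprm1 made up 29.1% in ipsilateral DRG and 28.2% in contralateral DRG. Oprd1 had 23.9% in ipsilateral DRG and 29.5% in contralateral DRG, and Oprk1 had 8.37% ipsilaterally and 4.0% contralaterally. By level the order was Oprl1, Oprm1, Oprd1, Oprk1 in ipsilateral DRG and Oprl1, Oprd1, Oprm1, Oprk1 in contralateral DRG. With no replicates, the order of these neighbouring levels has no measured spread.

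**Figure D1:**
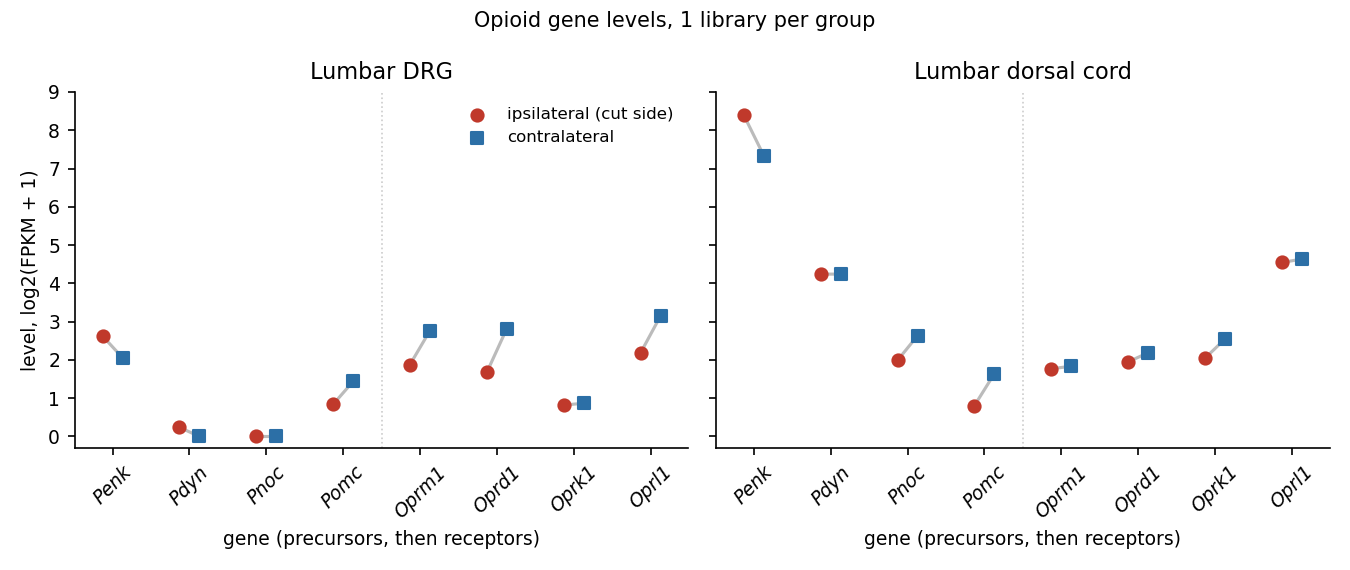
Level of each opioid gene in the 4 libraries on a log2(FPKM + 1) scale, lumbar DRG at left and lumbar dorsal cord at right, with circles for the ipsilateral and squares for the contralateral library. In DRG the circles of Oprm1, Oprd1 and Oprl1 lie below their squares, and in cord the circle of Penk, at 335 FPKM, lies above its square, at 160.3 FPKM.

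By the 2-fold rule, 1 of 5 measured members (Oprd1) was lower and 0 were higher in ipsilateral DRG. Over all 13137 measured features the same rule takes 0.784% as lower and 3.04% as higher. Oprm1 and Oprl1 miss this rule with the pseudocount of 1 FPKM, while their contralateral levels were 2.17 and 2.22 times the ipsilateral ones in deposited FPKM. The authors' deposited table calls Oprm1 (q = 0.0359), Oprd1 (q = 0.000635) and Oprl1 (q = 0.0124) significantly lower and no member higher. These Cuffdiff q-values set 1 library against another and say nothing about the spread between mice. Of the 13975 features tested in that table, 1.9% are called lower and 4.64% higher, while the members called are 3 of the 6 tested.

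Of the precursors, Penk was at 5.16 FPKM in ipsilateral DRG and 3.16 FPKM in contralateral DRG, a log2 ratio of 0.57. Its fold of 1.64 had an interval of 0.904 to 2.96. Pomc (mm9 chromosome 12, 3954950 to 3960618) was at 0.789 FPKM in ipsilateral DRG and 1.71 FPKM in contralateral DRG, a log2 ratio of -0.60, with a fold of 0.462 and an interval of 0.182 to 1.17. Pnoc (mm9 chromosome 14, 66019509 to 66044046) was listed at 0 in both DRG libraries, and Pdyn was listed at 0.179 FPKM ipsilaterally and at 0 contralaterally. Penk is far more abundant in cord, so the level of cord genes in the DRG libraries stands beside its value. Of 11 genes of the oligodendrocyte and dorsal horn inhibitory lists, taken after the data were seen as under 1 FPKM in both DRG libraries and measured in both cord libraries, 8 were higher in contralateral than in ipsilateral DRG. Their median DRG level was 0.0136% of the cord level on the ipsilateral side and 0.463% on the contralateral side, with highest values of 0.519% ipsilaterally and 1.99% contralaterally (Opalin, an oligodendrocyte gene). Penk in DRG was at 1.54% of its cord level on the ipsilateral side and 1.97% on the contralateral side, and the part of cord RNA in the Penk values was not tested. Oprm1, Oprd1 and Oprl1 were at 15.8% or more of their cord levels on either side. Neither the Penk nor the Pomc difference was called in the authors' deposited table, with q = 0.450 and q = 0.451.

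**Figure D2:**
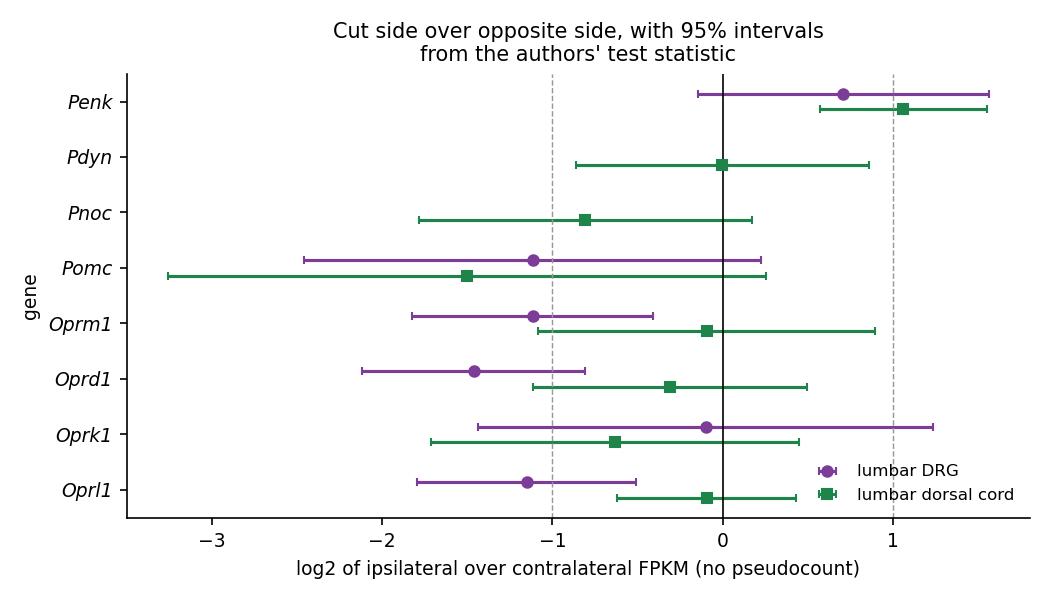
The log2 of ipsilateral over contralateral FPKM, without a pseudocount, for each opioid gene in lumbar DRG (circles) and lumbar dorsal cord (squares), with 95% intervals that follow from the authors' deposited test statistic. Intervals lie wholly below 0 for Oprm1, Oprd1 and Oprl1 in DRG and wholly above 0 for Penk in cord. Genes with a library listed at 0 have no point.

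Markers of the ganglion's cells give the context of the lower receptor levels. In bulk tissue, fewer cells of a type and less RNA per cell cannot be told apart. The pan-neuronal list had a median log2 ratio of 0.05 over 11 measured genes in DRG, with 0 genes 2-fold different, and its summed level was 5340 FPKM ipsilaterally and 4523 FPKM contralaterally. Within that list Rbfox3, the gene of the neuronal marker NeuN, was at 46.5 FPKM in ipsilateral and 74.7 FPKM in contralateral DRG (log2 ratio -0.67), while Stmn2, a gene of growing axons, was at 1516 FPKM ipsilaterally and 828 FPKM contralaterally (0.87). Nociceptor genes had a median log2 ratio of -0.67 over 12 genes, 10 of them below 0, and their summed level was 1940 FPKM ipsilaterally and 2457 FPKM contralaterally. For large sensory neuron genes the median was -0.63 over 12 genes, with 11 below 0 and summed levels of 1106 FPKM ipsilaterally and 1687 FPKM contralaterally. The part of these neuron types in the lower levels of Oprm1, Oprd1 and Oprl1 was not tested. Myeloid cell genes were in the other direction, with a median log2 ratio of 1.25 over 12 genes and a summed level of 198 FPKM ipsilaterally and 72.8 FPKM contralaterally. No T and B lymphocyte gene of the 11 found reached 1 FPKM in DRG or in cord.

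Because Oprm1, Oprd1 and Oprl1 were lower side by side in ipsilateral DRG, the bases before their transcription starts are shown side by side. RefSeq (GRCm38.p6, a later build than the tables' mm9) lists starts for 5 of the 8 members, with 10 windows in all, and which start is used in these libraries cannot be told from a level per gene. For Oprm1 the second of 3 windows is printed and for Oprl1 the first of 3, as examples with no evidence that these starts are the ones used, each being the 250 bases just before the start. Capitals mark the GC box GGGCGG and the TATA box TATAAA on either strand, and no marked motifs overlap.
Oprm1, chr10:6788320-6788569, plus strand: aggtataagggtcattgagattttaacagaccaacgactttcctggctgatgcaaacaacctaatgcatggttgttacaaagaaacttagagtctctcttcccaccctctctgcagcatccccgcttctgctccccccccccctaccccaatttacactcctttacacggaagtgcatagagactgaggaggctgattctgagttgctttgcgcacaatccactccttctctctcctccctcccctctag
Oprd1, chr4:132144487-132144736, minus strand: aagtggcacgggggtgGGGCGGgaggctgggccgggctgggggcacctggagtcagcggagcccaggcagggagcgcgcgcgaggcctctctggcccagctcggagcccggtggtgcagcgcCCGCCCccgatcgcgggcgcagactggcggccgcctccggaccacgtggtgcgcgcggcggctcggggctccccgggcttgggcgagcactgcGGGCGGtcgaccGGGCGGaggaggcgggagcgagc
Oprl1, chr2:181714766-181715015, plus strand: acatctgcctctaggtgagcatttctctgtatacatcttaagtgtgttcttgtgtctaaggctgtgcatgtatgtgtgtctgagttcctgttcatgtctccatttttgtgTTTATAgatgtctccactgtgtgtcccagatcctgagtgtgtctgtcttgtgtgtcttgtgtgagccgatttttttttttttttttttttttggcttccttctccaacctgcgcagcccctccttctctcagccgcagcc

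These windows are unlike in composition. The Oprd1 window has a GC content of 80% and 4 GC boxes, against 50% and 0 GC boxes for Oprm1 and 44.4% and 0 GC boxes for Oprl1, whose window holds 1 TATA box on the reverse strand. The windows not printed had a GC content of 45.6% and 50.8% for Oprm1 and 54.8% and 48.8% for Oprl1, and held 0 of these motifs. The median GC content of all 32851 windows was 52.4%. A GC box occurs in 32.7% of all windows and a TATA box in 12.4%. The AP-1 motif TGANTCA occurs in none of the 7 windows of these receptors and in 6.75% of all windows. The CRE motif TGACGTCA occurs in none of the 7 and in 1.55% of all. The 7 are not all separate sequences, because the Oprm1 window with 50.8% GC (chr10:6788326-6788575) shares most of its bases with the printed one. A motif match describes these letters only, and the absence of one says nothing about the factor.

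In the dorsal cord, Penk was by far the most abundant of the opioid transcripts. Penk (mm9 chromosome 4, 4060682 to 4065592) was at 335 FPKM in ipsilateral cord and 160.3 FPKM in contralateral cord, a log2 ratio of 1.06. It ranked 155th of 21883 features by level in the ipsilateral library and 383rd in the contralateral one. The fold of 2.09 had an interval of 1.49 to 2.93, and the authors' deposited table calls the difference between these Cuffdiff libraries with q = 0.00174. Penk alone made up 93.9% of precursor FPKM in ipsilateral cord and 86.4% in contralateral cord.

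The intervals of the other precursors included no difference. Pdyn, the dynorphin precursor, was at 17.9 FPKM in ipsilateral and 17.9 FPKM in contralateral cord, and the interval of its fold was 0.551 to 1.81. The authors' row for Pdyn covers 1869 bases of mm9 chromosome 2 (129513736 to 129515604), while GENCODE M21 on GRCm38 gives the gene a span of 13280 bases, so the row may hold only part of the gene and its FPKM is that of the row. Pnoc, the nociceptin precursor, was at 2.98 FPKM in ipsilateral and 5.21 FPKM in contralateral cord, with a fold of 0.571 and an interval of 0.290 to 1.13. Pomc was at 0.749 FPKM in ipsilateral and 2.12 FPKM in contralateral cord, with a fold of 0.353 and an interval of 0.104 to 1.19. The summed precursor level was 356 FPKM ipsilaterally and 186 FPKM contralaterally, a ratio of 1.92.

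All 4 receptors had log2 ratios below 0 in cord, except that centring on the pan-neuronal genes put Oprm1 at 0.02. Oprl1 was at 22.3 FPKM in ipsilateral and 23.8 FPKM in contralateral cord, with a fold of 0.938 and an interval of 0.651 to 1.35. Oprm1 was at 2.41 FPKM in ipsilateral and 2.57 FPKM in contralateral cord, with a fold of 0.937 and an interval of 0.471 to 1.86. Oprd1 was at 2.86 FPKM in ipsilateral and 3.55 FPKM in contralateral cord, with a fold of 0.807 and an interval of 0.462 to 1.41. Oprk1 was at 3.13 FPKM in ipsilateral and 4.84 FPKM in contralateral cord, with a fold of 0.646 and an interval of 0.305 to 1.37. Each interval includes no difference. Those of Oprm1, Oprd1 and Oprk1 also include a level 2 times lower on the cut side, so such a difference could not be told from none for them in cord. Ipcef1, which shares the interval of Oprm1, was at 4.08 FPKM in ipsilateral and 6.40 FPKM in contralateral cord.

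By the 2-fold rule, 1 of 8 measured members (Penk) was higher and 0 were lower in ipsilateral cord. Over all 13351 measured features the rule takes 4.46% as higher and 1.64% as lower. The authors' deposited table likewise calls Penk higher and no other of the 8 tested members, and it calls 4.52% of 14279 tested features higher and 1.55% lower. The count of 1 in 8 is a count of Penk alone.

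Cell type markers of the cord stood as follows beside the Penk difference. The dorsal horn excitatory list had a median log2 ratio of -0.12 over 10 measured genes and the inhibitory list a median of -0.15 over 11, with summed levels of 743 FPKM ipsilaterally and 773 FPKM contralaterally for the excitatory list, and 524 FPKM ipsilaterally and 545 FPKM contralaterally for the inhibitory list. Of the excitatory genes 6 were below 0 and 4 above, with 1 past 2-fold, and of the inhibitory genes 6 were below and 5 above, with 2 past 2-fold. The genes past 2-fold, all higher, were Tac2, Npy and Gal, named here after their values were seen. Tac2, the neurokinin B precursor, was at 105 FPKM in ipsilateral and 50.1 FPKM in contralateral cord (log2 ratio 1.05). Npy, the neuropeptide Y precursor, was at 87.3 FPKM ipsilaterally and 25.9 FPKM contralaterally. Lbx1, a transcription factor gene of dorsal horn neurons that is in neither of these lists, was at 13.5 FPKM ipsilaterally and 3.38 FPKM contralaterally (1.73). Other dorsal horn transcription factor genes lay in both directions, with Lmx1b at 0.66, Bhlhe22 at -0.08, Ebf2 at -0.17 and Rorb at -0.43. Gad1, the gene of a GABA-synthesising enzyme, was at 45.8 FPKM in ipsilateral and 91.8 FPKM in contralateral cord (-0.99), the lowest log2 ratio of the inhibitory list. Among other genes of that list, Slc6a5 stood at -0.66, Slc32a1 at -0.35 and Pax2 at 0.49. Gad2 was at 38.6 FPKM ipsilaterally and 43.1 FPKM contralaterally (-0.15). Myeloid cell genes had a median log2 ratio of 2.27 over 12 genes, and their summed level was 816 FPKM ipsilaterally and 160.0 FPKM contralaterally. The part of these cell types, or of how the cord was dissected, in the Penk difference was not tested.

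**Figure D3:**
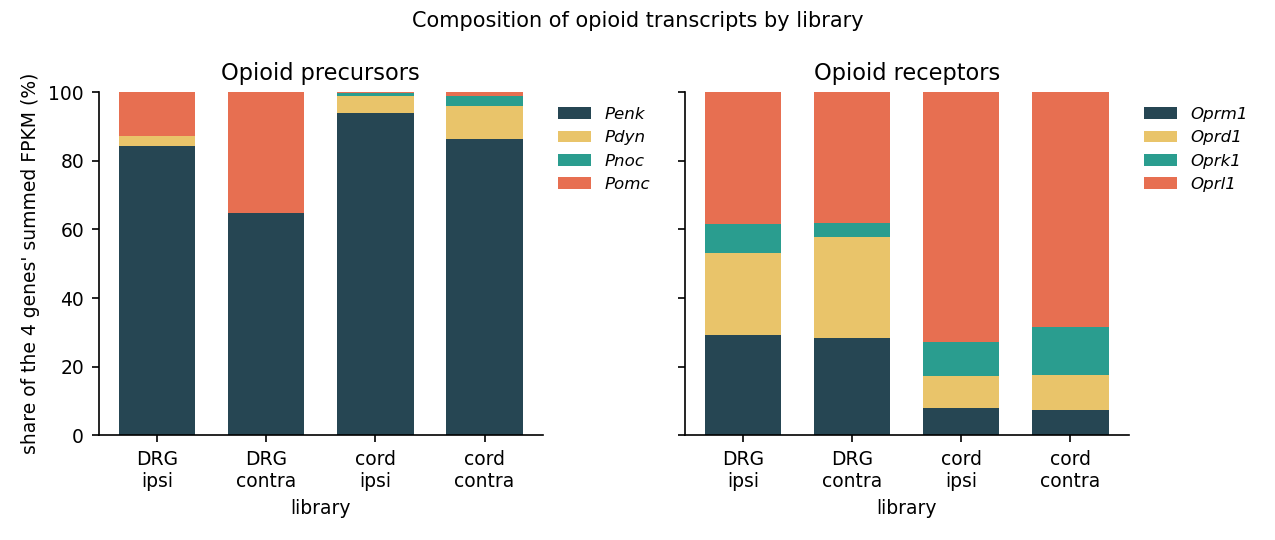
Share of each gene in the summed FPKM of the 4 precursors (left) and of the 4 receptors (right), by library. Penk fills 93.9% of ipsilateral and 86.4% of contralateral cord precursor FPKM, and Oprl1 fills 72.7% of ipsilateral and 68.5% of contralateral cord receptor FPKM.

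The side-to-side differences of the 6 members with a fold in each tissue were set against each other between the tissues on the log2 scale of the plain fold, using the standard errors of both tables. For Oprl1 the log2 fold was -1.15 in DRG and -0.09 in cord, a difference of -1.06 with an interval of -1.89 to -0.23. For Oprd1 it was -1.46 in DRG and -0.31 in cord, a difference of -1.15 with an interval of -2.19 to -0.12. For Oprm1 it was -1.12 in DRG and -0.09 in cord, and the interval of the difference, -2.24 to 0.20, included 0. For Penk it was 0.71 in DRG and 1.06 in cord, with an interval of the difference of -1.34 to 0.63. Oprk1 and Pomc lay in the other direction from Oprl1 and Oprd1, with differences of 0.53 (interval -1.19 to 2.25) and 0.39 (interval -1.83 to 2.60), and both intervals included 0. These intervals describe the 4 libraries and are no test of the tissues.

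Levels can be set across tissues only roughly, because the tables were normalised separately. Penk was at 160.3 FPKM in contralateral cord and 3.16 FPKM in contralateral DRG, a ratio of 50.8. Oprl1 was also higher in cord, at 23.8 FPKM in contralateral cord and 7.87 FPKM in contralateral DRG, and Oprk1 likewise, at 4.84 FPKM in contralateral cord and 0.822 FPKM in contralateral DRG. Oprm1 was lower, at 2.57 FPKM in contralateral cord and 5.80 FPKM in contralateral DRG, and so was Oprd1, at 3.55 FPKM in contralateral cord and 6.06 FPKM in contralateral DRG. On the cut side Penk was at 335 FPKM in cord and 5.16 FPKM in DRG, a ratio of 64.8, and Oprm1 at 2.41 FPKM in cord and 2.67 FPKM in DRG. The order of receptors by level in both cord libraries was Oprl1, Oprk1, Oprd1, Oprm1. The lower levels lay close together, at 3.13 FPKM for Oprk1, 2.86 FPKM for Oprd1 and 2.41 FPKM for Oprm1 in ipsilateral cord. With no replicates, their order has no measured spread, and the 2 sides are not replicates of each other.

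Peptide processing enzymes differed little in DRG. All 10 listed genes were measured, with a median log2 ratio of -0.08 and 0 genes 2-fold different or called in the authors' deposited table. Pcsk2, a convertase that cuts opioid precursors, was at 42.3 FPKM in ipsilateral and 59.9 FPKM in contralateral DRG (-0.49), and Pcsk1, the other neuroendocrine convertase, at 33.9 FPKM ipsilaterally and 38.3 FPKM contralaterally (-0.17). In cord the median was 0.09 over 10 genes. The 1 gene past 2-fold there was Pcsk1n, which encodes proSAAS, an inhibitor of Pcsk1, at 43.5 FPKM in ipsilateral and 19.1 FPKM in contralateral cord (1.15, called in the authors' deposited table). The cathepsin gene Ctsl was at 112 FPKM ipsilaterally and 71.4 FPKM contralaterally in cord (0.64).

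For enzymes that break opioid peptides down, the median log2 ratio was -0.01 over 9 measured genes in DRG and -0.06 over 8 in cord, with 0 genes 2-fold different in either tissue. Among them, Anpep, the aminopeptidase N gene, was at 1.98 FPKM in ipsilateral and 0.995 FPKM in contralateral DRG (0.58), and the interval of its plain fold was 1.08 to 3.66. Ace, the angiotensin-converting enzyme gene, was at 10.1 FPKM in ipsilateral and 6.32 FPKM in contralateral cord (0.60), with an interval of 1.13 to 2.25. Neither interval includes no difference, and the authors' deposited table calls neither gene.

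Inhibitory G protein genes had a median log2 ratio of 0.16 over 12 genes in DRG and -0.19 over 12 in cord, with 0 genes 2-fold different. Gnao1, the Go alpha subunit gene, was at 399 FPKM in ipsilateral and 535 FPKM in contralateral DRG (-0.42), and Gnai2, a Gi alpha subunit gene, at 153 FPKM in ipsilateral and 95.3 FPKM in contralateral cord (0.68). For receptor effector genes the DRG median was -0.24 over 11 genes, with 8 below 0. The authors' deposited table calls 1 of them, Kcnj3, which encodes the potassium channel subunit GIRK1, at 3.57 FPKM in ipsilateral and 7.91 FPKM in contralateral DRG (log2 ratio -0.96). Kcnj9, another subunit of these channels, was at 0.461 FPKM ipsilaterally and 1.27 FPKM contralaterally in DRG (-0.63). In cord the effector median was 0.02 over 11 genes, and Kcnj3 was at 16.3 FPKM ipsilaterally and 20.0 FPKM contralaterally (-0.28).

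Desensitisation genes, which end receptor signalling, had a median log2 ratio of -0.09 over 14 measured genes in DRG and 0.20 over 14 in cord, with 0 genes 2-fold different. In DRG the authors' deposited table calls Rgs9, a GTPase-activating protein gene, lower at 1.67 FPKM ipsilaterally and 4.19 FPKM contralaterally (-0.96), and the receptor kinase gene Grk6 higher at 35.4 FPKM ipsilaterally and 23.1 FPKM contralaterally (0.60). Grk6 is also called higher in cord in the authors' deposited table, at 23.1 FPKM in ipsilateral and 12.9 FPKM in contralateral cord (0.79). Arrb1, a beta-arrestin gene, was at 101 FPKM in ipsilateral and 66.4 FPKM in contralateral DRG (0.60).

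Trafficking partners had a median log2 ratio of -0.15 over 13 measured genes in DRG and -0.15 over 13 in cord, with 0 genes 2-fold different. Gprasp2, a gene of the family of receptor sorting proteins, was at 16.9 FPKM in ipsilateral and 32.8 FPKM in contralateral DRG (-0.91). Its relative Gprasp1, whose product sorts the delta receptor to lysosomes, was at 60.6 FPKM ipsilaterally and 87.7 FPKM contralaterally in DRG (-0.53). Cxcr7, now Ackr3, a scavenger receptor that binds opioid peptides, was at 3.72 FPKM in ipsilateral and 1.51 FPKM in contralateral DRG (0.91). The authors' deposited table calls Gprasp2 lower and Cxcr7 higher.

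Transcription factors tied to opioid genes had a median log2 ratio of 0.18 over 12 measured genes in DRG, 2 of them at least 2-fold higher, and 0.31 over 13 in cord, again with 2. In DRG these were the injury factor genes Atf3, at 389 FPKM ipsilaterally and 12.6 FPKM contralaterally (4.85), and Jun, at 88.5 FPKM ipsilaterally and 41.8 FPKM contralaterally (1.06). Prdm12, a gene of the nociceptor lineage, was lower, at 50.5 FPKM in ipsilateral and 96.8 FPKM in contralateral DRG (-0.93). Kcnip3, named after its values were seen and called lower in DRG in the authors' deposited table, encodes DREAM, a repressor of Pdyn, and was at 50.6 FPKM in ipsilateral and 83.5 FPKM in contralateral DRG (-0.71), and at 26.6 FPKM in ipsilateral and 26.3 FPKM in contralateral cord (0.02). In cord the 2 were Atf3 and Lbx1.

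**Figure D4:**
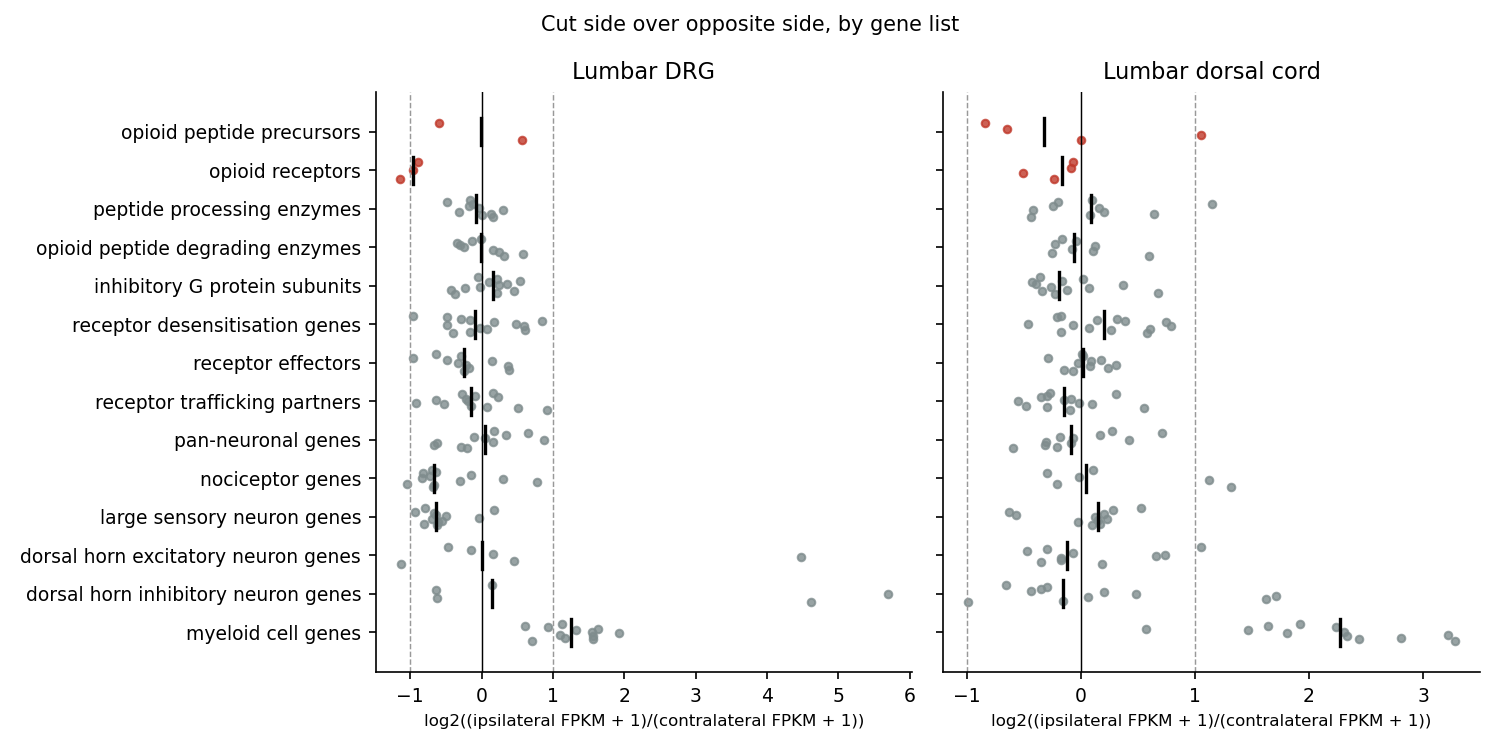
Log2((ipsilateral FPKM + 1)/(contralateral FPKM + 1)) of the measured opioid genes (red) and of the measured genes in 6 pathway lists and 6 cell type lists (grey); the transcription factor list and the other cell type lists are not drawn, DRG at left and dorsal cord at right, with a black bar at each list's median and dashed lines at -1 and 1. The 3 measured opioid receptors in DRG lie between -0.89 and -1.14, and the myeloid list has its median at 1.25 in DRG and 2.27 in cord.

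Features with the most similar levels over the 4 libraries were found by Euclidean distance on log2(FPKM + 1). For Oprl1 the closest was Necab2, a calcium-binding protein gene, at a distance of 0.26, with 3.86 FPKM in ipsilateral and 6.56 FPKM in contralateral DRG, and 21.5 FPKM in ipsilateral and 23.9 FPKM in contralateral cord. For Oprm1 it was Car8, a carbonic anhydrase-related gene, at 0.19, for Oprd1 Tmem28 at 0.27, and for Oprk1 Cldn14 at 0.25. For Pnoc, Pomc and Pdyn the closest features were 4933413G19Rik at 0.15, Marveld2 at 0.26 and Olig2, a transcription factor gene of the oligodendrocyte lineage, at 0.33. Penk had no close match, its nearest feature being the myelin gene Mag at a distance of 1.41, followed by Sst, the somatostatin precursor gene, at 1.44. Distances over 4 libraries order features by level and side, and carry no statement on shared function.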

How the data were processed

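RNA was measured in 4 libraries, 1 per group. Per the labels' protocols, a QIAGEN RNeasy Mini column served for extraction and an Epicentre ScriptSeq kit for the libraries. TopHat 1.4.0, Cuffdiff 1.3.0 and the genome build mm9 are named, per the submitters' processing notes; the annotation, filters and strand setting are not given in the sources used here, so reads of overlapping or antisense genes cannot be told apart. The authors deposited 1 Cuffdiff table per tissue with FPKM per library, and the deposited tables also hold the authors' p-values and q-values. Columns of other samples left out numbered 0. Read totals are not given, so depth is unknown.

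With Python 3.11.15, pandas 2.3.3 and numpy 2.4.6, log2 ratios with a pseudocount of 1 FPKM were computed, which understate differences of low genes. Standard errors were the deposited log2 fold divided by the deposited test statistic, and the median standard error was 0.44 in DRG and 0.57 in cord for features with a mean of 1 to 3 FPKM. The ratio step was run on simulated data without noise, which checks its arithmetic only and says nothing about genes as low as the receptors in DRG. The members, the 7 pathway lists and the 11 marker lists were chosen with earlier results of these data known. Named genes are the 8 members, up to 4 measured genes in each tissue of every pathway list with the greatest log2 ratio in size, up to 3 of the highest level per marker list, and up to 3 nearest features per member; other genes named were chosen after their values were seen. Alternatives covered pseudocounts, filters on low values, rescaling and the authors' calls. Motifs were searched on both strands.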

Additional observations from a re-analysis of the deposited data

How the results depend on the processing

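The alternative pseudocounts and rescalings gave 70 log2 ratios of members, while the filters and the authors' calls gave none. Each of the 70 moved from the reported one by less than the distance from the log2 fold to either end of its 95% interval. That distance is wide for low genes, so this is a loose bound. Pomc ranged from -1.39 to -0.45 in cord and from -1.03 to -0.31 in DRG. The interval of the plain fold itself did not hold every value. Oprd1 in DRG, at -0.80 with a pseudocount of 3 FPKM, lay just above the upper end of its interval, a fold of 0.571. The Penk ratio in cord ranged from 1.04 to 1.15. In DRG, Oprd1 ranged from -1.42 to -0.80, Oprl1 from -1.13 to -0.73 and Oprm1 from -1.09 to -0.63. In cord, Oprm1 ranged from -0.09 to 0.02, with the value above 0 under pan-neuronal centring, and Pdyn from -0.02 to 0.09. The count of members at least 2-fold lower in DRG, 1 as reported, stayed at 1 under both filters on low values and under upper-quartile rescaling. It was 4 with a pseudocount of 0.1 FPKM, 0 with 3 FPKM, 2 under median rescaling, 2 under pan-neuronal centring and 3 by the authors' significance call in the deposited table. Over all measured features in DRG, the share at least 2-fold lower was 0.784% as reported. That share was 1.97% with a pseudocount of 0.1 FPKM, 0.335% with 3 FPKM, 0.952% under median rescaling and 0.959% under pan-neuronal centring. It was 0.471% with no filter, 0.725% with a filter at 5 FPKM and 0.746% under upper-quartile rescaling. The authors call 1.9% of tested features lower. With a pseudocount of 0.1 FPKM, 1 member (Pomc) was at least 2-fold lower in cord, against 0 as reported. The other 26 of 32 member counts stayed within 1.5 times. List medians were set against a bound built from the standard errors of their genes, which treats the genes of a list as independent. With 1 library per group, this bound is no measured error of a median. Of the list medians, 233 stayed within it. The 4 that did not were all in DRG: myeloid genes at 1.56 with a pseudocount of 0.1 FPKM, oligodendrocyte genes at -0.16 with no filter on low values, and, with a filter at 5 FPKM, dorsal horn inhibitory genes at 4.62 and astrocyte genes at -0.32. No paired analysis was possible because each group has 1 library, and for the same reason no replicate could be left out. On the log2 scale Pomc and Oprk1 had the largest standard errors of the members in each tissue. Read numbers are unknown.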

Other observations

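The other cell type lists gave these values beside the opioid genes. Schwann and satellite glia genes had a median log2 ratio of 0.14 over 12 measured genes in DRG and 0.09 over 10 in cord. For oligodendrocyte genes it was 0.21 over 5 in DRG and 0.03 over 10 in cord, and the 5 oligodendrocyte genes under 1 FPKM in DRG were all lower ipsilaterally, from -0.14 to -0.94. Without the filter the DRG median was -0.16. For astrocyte genes it was -0.00 over 10 in DRG and 0.08 over 10 in cord. The DRG value covers genes in both directions: the authors' deposited table calls Slc1a2 (-1.43), Aldoc (-0.79) and Aqp4 (2.04 FPKM in ipsilateral and 5.10 FPKM in contralateral DRG) lower and Aldh1l1 (1.01) and Sox9 (1.29) higher. Motor and cholinergic neuron genes stood at -0.39 over 4 in DRG and -0.05 over 4 in cord. Large sensory neuron genes, at -0.63 in DRG, were at 0.15 over 11 in cord, nociceptor genes at 0.05 over 6, and pan-neuronal genes at -0.09 over 11. In DRG the dorsal horn excitatory list stood at 0.00 over 6 and the inhibitory list at 0.14 over 5, or 4.62 with a filter at 5 FPKM. The excitatory list held Nts, the neurotensin precursor gene, at 245 FPKM in ipsilateral and 10.1 FPKM in contralateral DRG, and Calb2, at 4.89 FPKM in ipsilateral and 11.9 FPKM in contralateral DRG. The inhibitory list includes 2 neuropeptide genes that DRG neurons also express after nerve injury. Npy was at 373 FPKM in ipsilateral DRG and 6.26 FPKM in contralateral DRG, and Gal was at 232 FPKM in ipsilateral DRG and 8.47 FPKM in contralateral DRG. Both were at least 2-fold higher in ipsilateral cord too, as Penk was, while Penk was 1.64-fold higher in ipsilateral DRG with an interval that included no difference.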
